A study of Mus musculus with 6 samples.

Results

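The glycolysis enzymes described here were Hk1, Hk2, Pfkl, Pfkp, Aldoa, Gapdh, Pgk1, Eno1, Pkm and Ldha, 10 of the 19166 gene symbols in an RNA sequencing table of mouse renal cortex. They were chosen by symbol, as enzymes of the pathway, and all 10 were found, on 11 of 19176 rows because Aldoa stood on 2 rows. The main test (limma, threshold of 0.05 on the adjusted p) called no glycolysis enzyme. Only for Pkm did the libraries of the groups not overlap, where 14.4% of all rows did not. The log2 differences between the groups ran from -0.32 for Hk2 to 0.22 for Pgk1, and the lowest adjusted p of a member was 0.503 (limma).

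The study asked how bruceine A (BA), a plant quassinoid that the library labels call brucine A, acts on renal fibrosis after ischemia. All animals were wild-type male C57BL/6J mice aged 8 weeks whose left renal pedicle was clamped (unilateral ischemia-reperfusion injury, UIRI) and whose uninjured right kidney was taken out a day before the end. The UIRI group (3 libraries) received ethanol in saline and the UIRI + BA group (3 libraries) BA at 1 mg/kg by daily intraperitoneal injection, cortex was collected on day 14, and the study describes the libraries of a group as biological replicates. Sham-operated kidneys were not analysed here, so every comparison is between 2 injured groups and none is against uninjured tissue.

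Glycolysis splits glucose into pyruvate in the cytosol and yields a small amount of ATP without oxygen, and lactate dehydrogenase then turns pyruvate into lactate. In the healthy kidney the proximal tubule makes its ATP largely by oxidation of fatty acids and produces glucose rather than consuming it, while the distal segments and invading leukocytes and fibroblasts use glycolysis more. Several steps have isoenzymes encoded by separate genes: Pklr is a form of the proximal tubule, and Pkm that of most other cells. Renal cortex is a mixture of cells, and fewer cells of a type and less RNA per cell cannot be told apart in it.

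The values are normalised read counts, that is, reads per gene divided by a size factor of the library. The libraries held 16510720 (UIRI + BA replicate 1) to 38124164 reads on genes, and UIRI replicate 3 was the deepest, at 2.04 times the median of the others. That library also stood apart from its group. The median absolute log2 difference per gene (genes with a mean of at least 100) was 0.189 and 0.191 to the other UIRI libraries, which were 0.077 apart. To the treated libraries it was 0.112 to 0.14. Values without UIRI replicate 3 are therefore given for the members, and for other genes and lists only in part. Between 425 and 31728 reads lay on each member in each library, and the 10 members together took 0.287% to 0.304% of all reads. Across all rows 1971 (10.3%) had an unadjusted p below 0.05 in limma and 0 had an adjusted p below 0.05. At an adjusted p below 0.05 edgeR called 0 genes and DESeq2 called 213, and at an unadjusted p below 0.05 they called 1707 and 1511. The markers of the proximal tubule were present, and all 14 were higher after BA, 12 at an unadjusted p below 0.05. With 1 library left out 8 to 13 of them passed, 13 without UIRI replicate 3, where 25.2% of all rows passed.

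Hk1 and Hk2 encode hexokinases, which phosphorylate glucose at the entry of the pathway. Hk1 (chr10:62268855-62379908, minus strand, GRCm38) is the broadly expressed form. Its normalised read counts were, in the order of the replicate numbers, 2051, 1818 and 2315 under UIRI and 2311, 2043 and 1909.6 under UIRI + BA. The groups overlapped almost completely, with the highest and the lowest library both in the UIRI group. The means were 2061 ± 249 (SD, n = 3) and 2088 ± 205 (SD, n = 3), a log2 difference (UIRI + BA minus UIRI) of 0.02 with a standard error of 0.11 (limma, adjusted p = 0.953).

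Hk2 (chr6:82725025-82774454, minus strand) is the inducible hexokinase. It had the lowest mean normalised read count of the 10, with values of 660.5, 589 and 987 under UIRI and 532, 622 and 592 under UIRI + BA. UIRI replicate 3 stood far above the other 5 libraries, among which the groups overlapped. Hk2 also varied most among the members, with a highest-to-lowest ratio of 1.85, and 95% of the rows with a mean of at least 100 had a smaller one. The group means were 746 ± 212 (SD, n = 3) and 582 ± 45.8 (SD, n = 3), and the log2 difference was -0.32 with a standard error of 0.17 (limma, adjusted p = 0.546). Its 95% interval ran from -39.0% to 4.8%. Without UIRI replicate 3 the log2 difference was -0.10, and without UIRI replicate 2 it was -0.47.

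**Figure D1:**
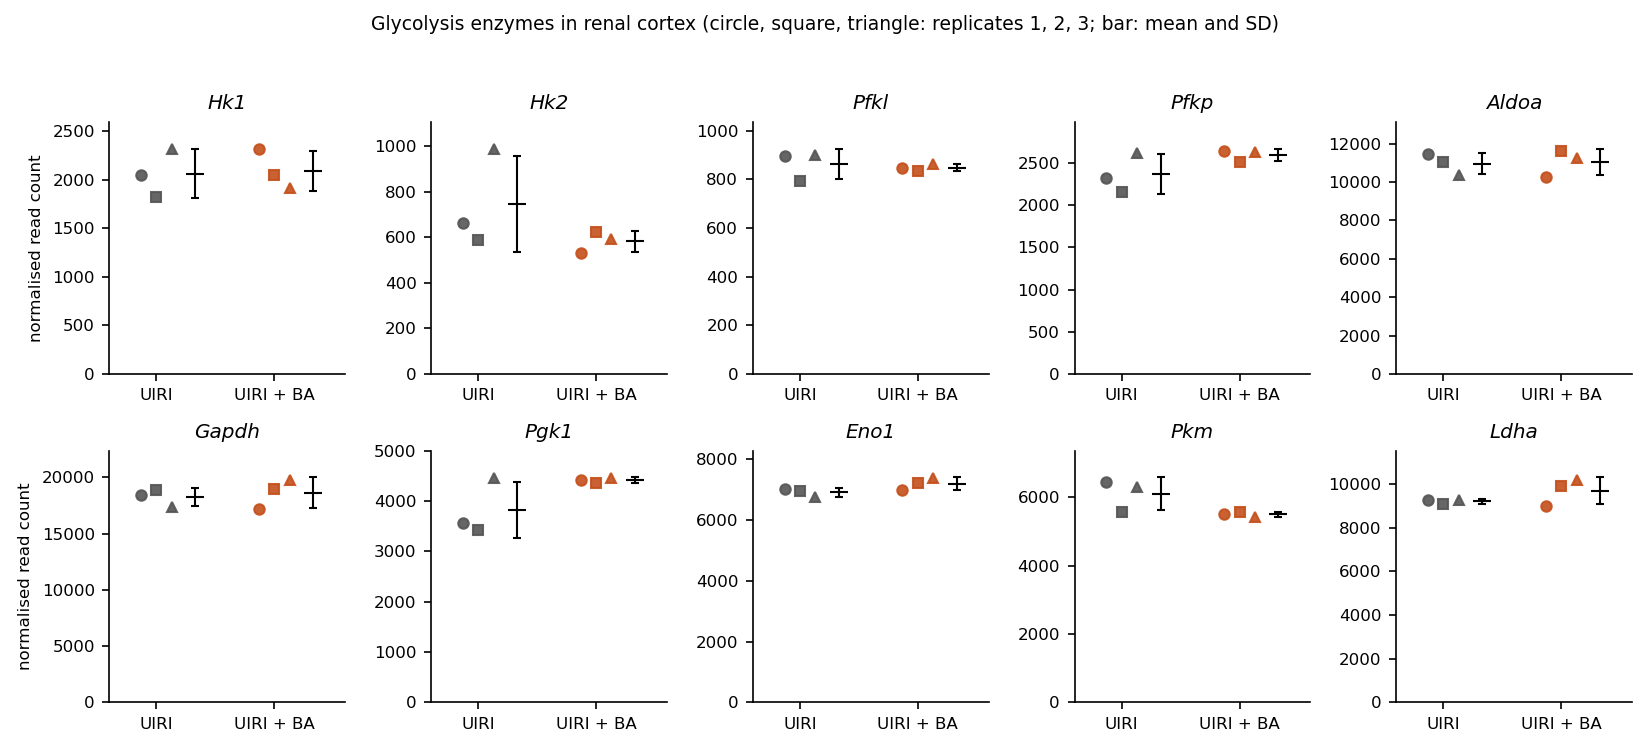
Normalised read counts (reads divided by the size factor of the library, linear axes from 0) of the 10 glycolysis enzymes in the 3 UIRI and 3 UIRI + BA libraries, in pathway order, with 1 point a library and the mean and SD of each group. Only for Pkm did the groups not overlap (5578 to 6463 against 5424 to 5574), where 14.4% of all rows did not. The highest point of Hk2, at 987, is UIRI replicate 3.

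Pfkl and Pfkp encode the liver and platelet subunits of phosphofructokinase, the main control point of the pathway. Pfkl (chr10:77986947-78010083, minus strand) had normalised read counts of 897, 794 and 901 under UIRI and 847, 836 and 863 under UIRI + BA. All 3 treated libraries lay inside the range of the UIRI libraries, and the log2 difference was -0.02 with a standard error of 0.08 (limma, adjusted p = 0.928). Pfkp (chr13:6579768-6648777, minus strand) had normalised read counts of 2321, 2161 and 2624 under UIRI and 2646, 2512 and 2629.6 under UIRI + BA. UIRI replicates 1 and 2 were below every treated library, and replicate 3 was among them. The means were 2369 ± 235 and 2596 ± 72.7 (SD, n = 3 each), and the log2 difference was 0.14 with a standard error of 0.09 (limma, adjusted p = 0.595).

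Aldoa (chr7:126795234-126800751, minus strand) encodes the aldolase that splits fructose 1,6-bisphosphate in muscle and most other cells. Its normalised read counts were 11454, 11041 and 10369 under UIRI and 10289, 11612 and 11228 under UIRI + BA. The treated group held both the highest and the lowest library. The means of 10954 ± 548 and 11043 ± 681 (SD, n = 3 each) gave a log2 difference of 0.01 with a standard error of 0.08 (limma, adjusted p = 0.968). The annotation holds a second gene named Aldoa just upstream on the same strand (chr7:126800790-126809108), and the second row of that symbol rested on 4 to 15 reads a library with a log2 difference of 0.17 and a standard error of 0.45. Which row belongs to which gene is not stated in the table, and the row with the higher mean was taken as Aldoa.

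Gapdh (chr6:125161715-125166467, minus strand) encodes glyceraldehyde-3-phosphate dehydrogenase, which makes the NADH of the pathway, and was the reference gene to which the study scaled its RT-qPCR. It was the most abundant member, rank 80 among all rows by mean. The normalised read counts were 18422, 18888 and 17376 under UIRI and 17171, 18951 and 19797 under UIRI + BA. The treated libraries spanned the whole range of the UIRI libraries and passed it at both ends. The means were 18229 ± 775 and 18639.7 ± 1340.2 (SD, n = 3 each), and the log2 difference was 0.03 with a standard error of 0.09 (limma, adjusted p = 0.913). Its 95% interval ran from -11.1% to 17.3%. The highest library was 1.15 times the lowest, against a median of 1.28 over the rows with a mean of at least 100, and 17.6% of those rows varied less.

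Because those RT-qPCR values rest on Gapdh, its mouse primer pair from the supplement of the study was placed on the Gapdh transcript. In the forward primer the capitals mark the bases that lie in exon 3 of 7, and in the amplicon they mark the 2 primer sites.
Gapdh forward primer: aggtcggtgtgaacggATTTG
Gapdh reverse primer: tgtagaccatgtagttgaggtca
Gapdh amplicon: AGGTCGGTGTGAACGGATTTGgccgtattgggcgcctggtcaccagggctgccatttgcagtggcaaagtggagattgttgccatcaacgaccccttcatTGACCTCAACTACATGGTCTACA
The amplicon of 123 bases covers transcript positions 248 to 370 of 1420, all within the coding sequence. It joins the last 16 bases of exon 2 (chr6:125165271-125165286) to the first 107 of exon 3 (chr6:125163330-125163436), so that the forward primer crosses an exon junction. Both sites also occur in the annotated transcripts of 43 other genes, 41 of them annotated as pseudogenes.

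Copies of this kind bear on the read counts as well. Of all 100-base windows of the longest principal Gapdh transcript, 78.05% occur unchanged in the transcript of another gene, as do 67.03% of those of Pgk1, 59.02% of Eno1, 9.82% of Pkm, 1.32% of Ldha and 0% of the other 5 members. The counts of Gapdh, Pgk1 and Eno1 are therefore uncertain as far as the counting dropped or split reads that match several places. Only 2 of the 84 genes that share windows with Gapdh were in the table, and together they had normalised read counts of 38.9 to 51.7 under UIRI and 32.3 to 45.9 under UIRI + BA. None of the 3 that share windows with Pgk1 was in the table. The single one in the table that shares windows with Eno1 had 12.6 to 19.4.

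Pgk1 (chrX:106187100-106203699, plus strand) encodes phosphoglycerate kinase, the first step of the pathway that returns ATP. Its normalised read counts were 3563, 3426 and 4458 under UIRI and 4416, 4348 and 4463 under UIRI + BA. The 3 treated libraries lay close together, UIRI replicate 3 was among them, and UIRI replicates 1 and 2 were lower. The means were 3816 ± 560.4 and 4409 ± 58.0 (SD, n = 3 each), 16.3% higher after treatment, with a log2 difference of 0.22 and a standard error of 0.10 (limma, adjusted p = 0.503). Its 95% interval ran from -0.8% to 36.5%. Without UIRI replicate 3 the log2 difference was 0.34 and the adjusted p 0.0274 (limma), the only call on a member in any setting that left out 1 library, and 5.02% of all rows were called in that setting.

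Eno1 (chr4:150236721-150248879, plus strand) encodes the enolase of most tissues. It was the steadiest member, with normalised read counts of 7039.9, 6959 and 6762 under UIRI and 6979, 7218 and 7392 under UIRI + BA. The groups overlapped through UIRI replicate 1 and UIRI + BA replicate 1 only, and the highest library was 1.09 times the lowest. The log2 difference was 0.06 with a standard error of 0.07 (limma, adjusted p = 0.777), and its 95% interval ran from -6.8% to 16.0%.

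Pkm (chr9:59656368-59679375, plus strand) encodes the pyruvate kinase that is spliced into an M1 and an M2 form, which a count per gene does not separate. The normalised read counts were 6463, 5578 and 6299.5 under UIRI and 5522, 5574 and 5424 under UIRI + BA. Pkm was the only member without overlap between the groups, although UIRI replicate 2 and UIRI + BA replicate 2 were nearly equal. Over all rows 14.4% did not overlap (7.45% higher and 6.96% lower after BA), so 1 of 10 members was not above that share. The means were 6114 ± 471 and 5507 ± 76.3 (SD, n = 3 each), 9.7% lower after treatment, with a log2 difference of -0.15 and a standard error of 0.08 (limma, adjusted p = 0.546). An exact two-sided permutation test gave p = 0.1, the smallest that 3 against 3 libraries can give.

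Ldha (chr7:46841475-46855627, plus strand) encodes the lactate dehydrogenase subunit that predominates in glycolytic cells. It had normalised read counts of 9263, 9068 and 9268 under UIRI and 8993, 9896 and 10156 under UIRI + BA. The UIRI libraries lay close together and the treated libraries fell on both sides of them. The means were 9199.6 ± 114 and 9682 ± 610.3 (SD, n = 3 each), and the log2 difference was 0.07 with a standard error of 0.08 (limma, adjusted p = 0.748).

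**Figure D2:**
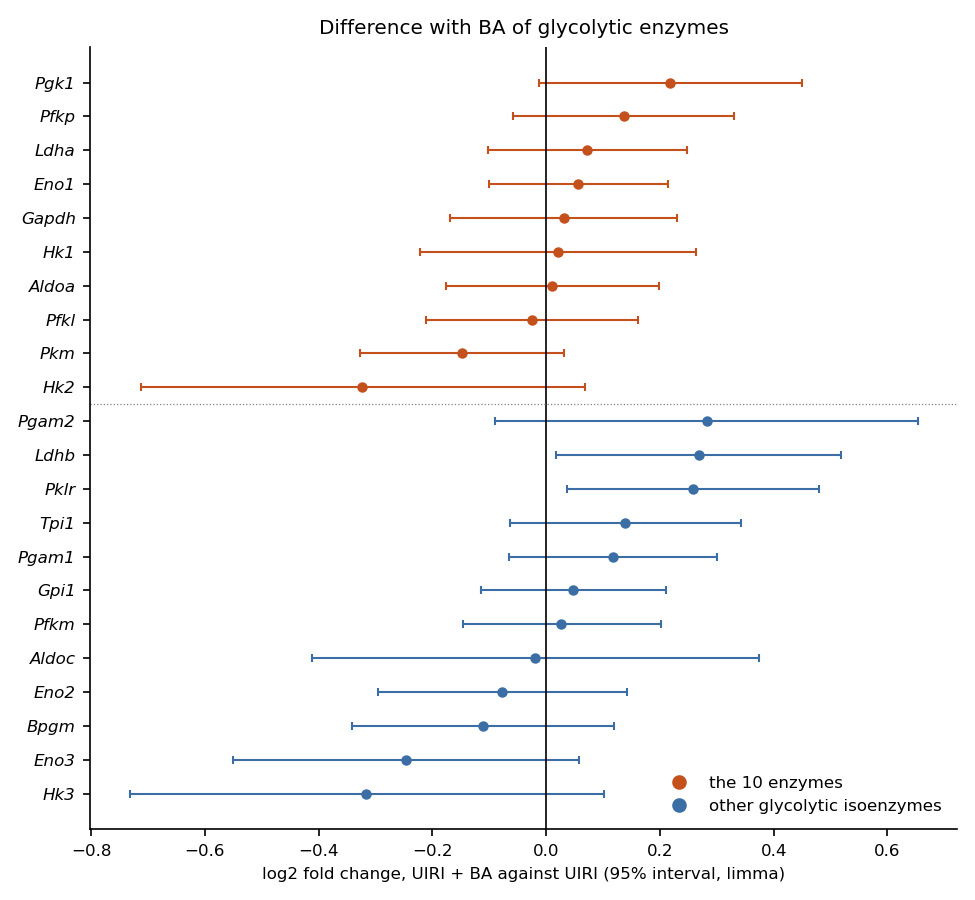
Log2 difference (UIRI + BA minus UIRI) from the limma fit with its 95% interval, for the 10 glycolysis enzymes (upper points) and for other enzymes of the pathway with a mean normalised count of at least 100 (lower points), each sorted by the difference. The interval of every one of the 10 includes 0, with point estimates from -0.32 (Hk2) to 0.22 (Pgk1), and those of Pklr and Ldhb do not.

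Among the 10 members 0 had an unadjusted p below 0.05, against 10.3% of all rows (5.67% higher and 4.61% lower). The values were higher after BA in 7 and lower in 3, and the median log2 difference was 0.03 against -0.01 over all rows. The standard errors ran from 0.07 to 0.17 with a median over all rows of 0.14, so a p above the threshold leaves room for the differences that each interval includes. The members did not move as a block from library to library. Over the 45 pairs of members the median Pearson r across the 6 libraries was 0.15, with 24 pairs above 0, ranging from 0.97 for Pfkp with Pgk1 to -0.88 for Hk1 with Gapdh. These 6 points share size factors and contain the group difference, and the correlations are given as a description.

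Divided by the length of the mRNA, the levels rank the members within the tissue. Gapdh was highest, with 12837 normalised reads per kilobase under UIRI and 13126.5 under UIRI + BA. It was followed by Aldoa with 7249.7 and 7308, Ldha with 5209 and 5482, Eno1 with 3414 and 3550.2, Pkm with 2514 and 2264, and Pgk1 with 2091 and 2416. The means of Pkm and Pgk1 changed places between the groups, and their ranges overlapped under UIRI. Pfkp, with 571 and 626, was above Hk1, with 535 and 542, in every library, although their ranges overlapped under UIRI. Pfkl with 232 and 227 and Hk2 with 135 and 106 were lowest. Among the members, the enzymes of the lower pathway stood above those of the first steps on this scale. The order did not hold beyond them. Gpi1, of an early step, had 2417.7 and 2501.1, and Pgam1, of the lower pathway, had 680 and 737. The lengths are those of the longest principal transcript, which need not be the one the kidney uses.

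The promoters of Pgk1 and Hk2, the members with the largest difference in each direction, are shown. Both genes are known targets of hypoxia-inducible factor, whose sites contain the letters ACGTG or GCGTG. Only ACGTG was marked and compared with all promoters. The sequences are the 250 bases before the transcription start in RefSeq (GRCm38.p6), at chrX:106186850-106187099 on the plus strand and chr6:82774455-82774704 on the minus strand, and the capitals mark ACGTG on either strand.
Pgk1 promoter: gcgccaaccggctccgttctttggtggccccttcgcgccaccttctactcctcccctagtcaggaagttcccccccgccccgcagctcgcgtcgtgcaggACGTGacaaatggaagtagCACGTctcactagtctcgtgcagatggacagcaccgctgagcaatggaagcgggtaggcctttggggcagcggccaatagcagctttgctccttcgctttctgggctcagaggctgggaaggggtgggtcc
Hk2 promoter: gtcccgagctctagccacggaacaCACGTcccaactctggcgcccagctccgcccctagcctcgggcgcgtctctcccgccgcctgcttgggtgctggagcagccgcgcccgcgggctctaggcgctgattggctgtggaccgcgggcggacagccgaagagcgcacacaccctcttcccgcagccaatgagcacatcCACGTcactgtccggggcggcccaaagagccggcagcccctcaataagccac
ACGTG on either strand occurred in 6 of the 17 promoters of the members (those of Aldoa, Hk2, Ldha, Pgk1 and Pkm) and in 5444 of all 32851 promoters (16.6%). The matching Aldoa promoters overlap and hold the same site, which was counted in each of them. The letters CACGTG, the site known for Myc, contain ACGTG on both strands and occurred in 1 of the 17, a promoter of Ldha, and in 6.02% of all promoters. The letters GCGTG on either strand occurred in promoters of Eno1, Gapdh, Hk1, Ldha, Pfkl and Pfkp, and their share over all promoters is not given here. A match describes the letters only.

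Of 16 other enzymes of the pathway 14 were in the table, and 2 had an unadjusted p below 0.05, both higher after BA, where 10.3% of all rows passed that threshold. Pklr, the pyruvate kinase of liver and proximal tubule, had normalised read counts of 654, 777 and 628 under UIRI and 817, 848 and 789 under UIRI + BA, without overlap. Its log2 difference was 0.26 with a standard error of 0.10 (limma, unadjusted p = 0.0276, adjusted p = 0.448). Ldhb, the lactate dehydrogenase subunit of oxidative tissue, had 25872, 29117 and 24790.1 under UIRI and 28202, 33727 and 34272 under UIRI + BA, with overlap through UIRI replicate 2. Its log2 difference was 0.27 (limma, unadjusted p = 0.0388, adjusted p = 0.472). Leaving out 1 library gave 0 to 2 genes of the list at an unadjusted p below 0.05, with 0 when UIRI replicate 1 was left out and 1 when replicate 2 of the treated group was. When UIRI replicate 3 was left out, Pklr and Ldhb had unadjusted p of 0.0646 and 0.0816 (limma), and the 2 genes below 0.05 were Hk3 and Eno3, both lower (log2 differences -0.50 and -0.38). In that setting 25.2% of all rows passed.

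None of the other listed enzymes with a mean normalised count of at least 100 had an unadjusted p below 0.05. The log2 difference was 0.14 for Tpi1 (triosephosphate isomerase), 0.12 for Pgam1 and 0.28 for Pgam2 (phosphoglycerate mutases). It was 0.05 for Gpi1 (glucose-6-phosphate isomerase), 0.03 for Pfkm (the muscle phosphofructokinase subunit) and -0.02 for Aldoc (the brain aldolase). It was -0.11 for Bpgm (bisphosphoglycerate mutase), -0.08 for Eno2 and -0.25 for Eno3 (the neuronal and muscle enolases) and -0.32 for Hk3 (a hexokinase of leukocytes). Eno1b and Pgk2 were not among the rows of the table.

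Within a step, the share of an isoenzyme can be read without a change in the total. Counted per kilobase of mRNA, Pkm made up 92.2%, 89.5% and 92.3% of the pyruvate kinase mRNAs (Pkm and Pklr) under UIRI and 89.0%, 88.7% and 89.1% under UIRI + BA, without overlap. UIRI replicate 2 was close to the treated libraries. The means were 91.3% ± 1.56 (SD, n = 3) and 88.9% ± 0.221 (SD, n = 3), and the exact two-sided permutation p was 0.1, the smallest possible. Pkm was lower and Pklr higher after BA, each without overlap. The share therefore could not overlap, and its p was fixed by the single genes and adds nothing to them.

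Ldha was the minor lactate dehydrogenase subunit. It made up 20.9%, 18.7% and 21.6% of Ldha and Ldhb mRNA under UIRI and 19.1%, 17.8% and 18.0% under UIRI + BA, with overlap through UIRI replicate 2 (exact two-sided permutation p = 0.2). Hk1 made up 67.1%, 66.2% and 68.0% of the hexokinase mRNAs (Hk1, Hk2, Hk3 and Hkdc1) under UIRI and 74.5%, 69.7% and 72.3% under UIRI + BA. The Hk1 groups did not overlap and the difference was 5.06 percentage points (exact permutation p = 0.1), while the share of Hk2 overlapped (p = 0.4 by the same permutation test). Pfkl made up 22.1% to 23.7% of the phosphofructokinase mRNAs under UIRI and 20.9% to 21.3% under UIRI + BA (exact permutation p = 0.1), Pfkp 54.6% to 58.0% and 57.4% to 58.9% (exact permutation p = 0.2). Eno1 made up 89.4% to 91.1% of the enolase mRNAs and 91.0% to 92.0% (exact permutation p = 0.2). These 7 shares were compared after the single genes were known, and none can pass an adjustment over 7 with 3 libraries a group.

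**Figure D3:**
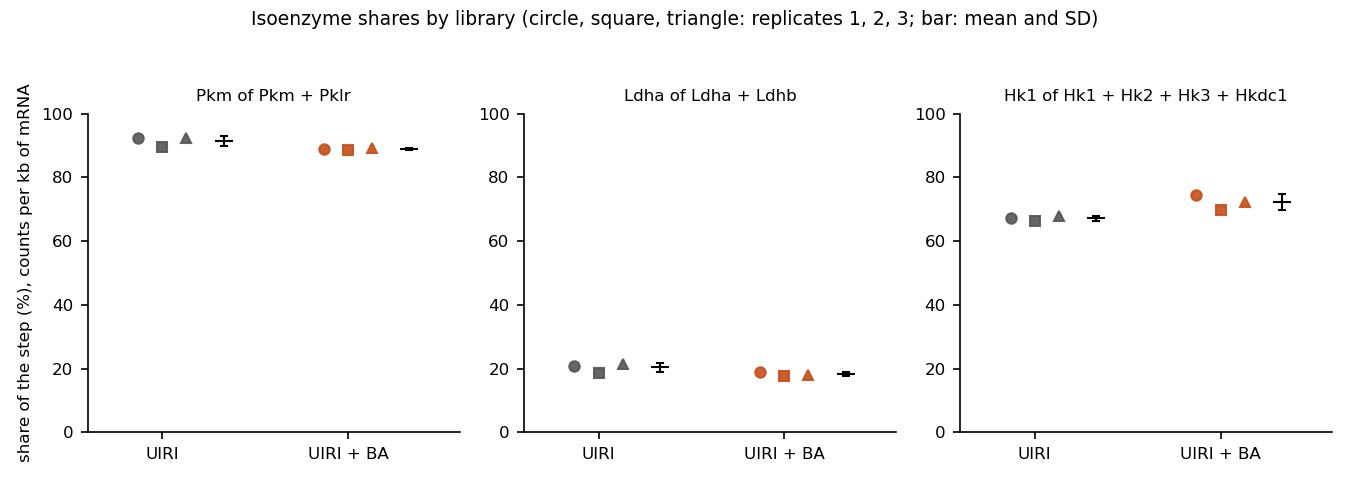
Share (percent, per kilobase of mRNA, axis as labelled) of the named member among the isoenzymes of its step in each library, with the mean and SD of each group. The share of Pkm lies at 89.5% to 92.3% in UIRI and 88.7% to 89.1% in UIRI + BA, and the share of Hk1 at 66.2% to 68.0% and 69.7% to 74.5%.

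Markers of other cell types also differed between the groups. The proximal tubule markers had a mean log2 level of 10.61, 10.65 and 11.33 in the UIRI libraries and 11.56, 11.40 and 11.78 in the UIRI + BA libraries, without overlap, and UIRI replicate 3 was the highest UIRI library. Within its group UIRI replicate 3 had the highest share of Pkm (92.3%), whose mean was lower after BA. It also had the highest shares of Hk1 (68.0%) and Eno1 (91.1%), whose means were higher after BA. The summed normalised counts of the proximal tubule markers were 63367 to 84167 and 91925.5 to 149529. Kap alone had 29077 to 32021 and 27223 to 76195 of these, and its groups overlapped. In 6 of the 14 markers the groups did not overlap, against 14.4% of all rows. The 11 leukocyte markers were all lower after BA, 2 at an unadjusted p below 0.05, with sums of 86911 to 123028 and 82639.6 to 96966. With 1 library left out 1 to 8 of them passed, 8 without UIRI replicate 3. In that setting 25.2% of all rows passed, against 10.3% with all libraries. The 9 fibroblast and myofibroblast markers were all lower as well, 6 at an unadjusted p below 0.05 (3 to 8 with 1 library left out: 3 without UIRI replicate 1 and also without the first treated library, 8 without the third), with sums of 115279 to 133767 and 84230.0 to 107137. Of all 19176 rows 808 passed without UIRI replicate 1, 1270 without UIRI + BA replicate 1 and 1612 without UIRI + BA replicate 3. None of the markers of these 3 lists was at 0 in any library, and their part in the isoenzyme shares was not tested.

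Markers of the urothelium varied within both groups. The 6 genes had a mean log2 level of 4.06, 4.06 and 6.10 under UIRI and 1.80, 1.81 and 5.31 under UIRI + BA, and Upk2 and Upk3a were at 0 in at least 1 library. Their summed normalised counts were 119 to 524 and 30.1 to 320.3, in both groups far below those of the proximal tubule. Of the skeletal muscle markers Ckm, Acta1 and Myh4 were not among the rows of the table, and the other 3 summed to 70.6 to 83.2 and 53.9 to 73.2 normalised counts. The urothelium list held 0 genes at an unadjusted p below 0.05, and 5 without UIRI + BA replicate 3, and the muscle list held 1, which was lower. Of all 19176 rows 10.3% passed with all libraries, and 1612 without UIRI + BA replicate 3. Of 10 markers of injured tubule, 3 were higher and 2 lower at that threshold. Those higher were Havcr1 (log2 difference 0.42), Krt20 (0.41) and Vcam1 (0.35), and those lower Lcn2 (-0.51) and Krt18 (-0.39). Limma called none of the 5, with adjusted p from 0.225 for Lcn2 to 0.389 for Krt20. DESeq2 called Havcr1 (DESeq2 adjusted p = 0.0127), Lcn2 (0.000765) and Krt18 (0.0194). It did not call Krt20 (DESeq2 adjusted p = 0.152) or Vcam1 (0.0592). The counts were 1 of 6 for thick limb, 0 of 8 for collecting duct, 0 of 5 for red blood cells and 0 of 6 for proliferation.

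Among 14 genes that control the rate of the pathway and the fate of pyruvate, 2 had an unadjusted p below 0.05, both higher after BA, again near the 10.3% of all rows. Pdk4, the kinase that shuts off pyruvate dehydrogenase and so keeps pyruvate from oxidation, went from a mean normalised count of 372 ± 66.5 (SD, n = 3) to 599 ± 112 (SD, n = 3), a log2 difference of 0.69 (limma, unadjusted p = 0.00273, adjusted p = 0.269). Pdp2, a phosphatase that reactivates the same enzyme, had a log2 difference of 0.37 (limma, unadjusted p = 0.0216). DESeq2 called Pdk4 (DESeq2 adjusted p = 0.0144) and not Pdp2 (DESeq2 adjusted p = 0.309). The subunits of pyruvate dehydrogenase themselves had log2 differences of 0.19 (Pdha1), 0.04 (Pdhb) and 0.10 (Dlat). Leaving out 1 library at a time gave 1 to 6 genes at an unadjusted p below 0.05 in this list, 6 of them without UIRI replicate 3. Without that library 25.2% of all rows passed.

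Over all rows 10.3% had an unadjusted p below 0.05, and 25.2% without UIRI replicate 3. With 1 library left out, 1 to 5 of 10 transporters of glucose and lactate passed that threshold, 5 without UIRI replicate 3. With all libraries 3 had higher and 1 lower values at that threshold. Those higher after BA were Slc2a2, the basolateral glucose transporter of the early proximal tubule (log2 difference 0.43, limma unadjusted p = 0.00308), and the sodium-glucose cotransporters Slc5a1 (0.34, unadjusted p = 0.0247) and Slc5a2 (0.51, unadjusted p = 0.0357). The lower one was Slc2a3, a high-affinity transporter of leukocytes and neurons (log2 difference -0.35, limma unadjusted p = 0.0328). The lactate carriers Slc16a1 and Slc16a7 had log2 differences of -0.04 and 0.26, and Bsg, a partner of Slc16a1, had -0.10. Slc2a1, the basal glucose transporter, was singled out after its values were seen, with normalised read counts of 738, 725 and 1125 under UIRI and 665, 835 and 731 under UIRI + BA, since UIRI replicate 3 stood above the rest as it did for Hk2.

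The enzymes of renal gluconeogenesis, which run the reverse route in the proximal tubule, are given beside the members for comparison. Of the 8 that the table holds, 5 were higher at an unadjusted p below 0.05, with log2 differences of 1.04 (Pck1), 0.67 (Pcx), 0.80 (Fbp1), 0.40 (Fbp2) and 0.86 (G6pc), and the median was 0.53. Pck2 had a log2 difference of -0.155. With 1 library left out 3 to 7 genes passed the unadjusted threshold, 3 without UIRI replicate 1 or 2 and 7 without replicate 3. Over all rows 10.3% passed with all libraries, 808 of 19176 without UIRI replicate 1 and 25.2% without UIRI replicate 3. DESeq2 called Pck1 and Pcx (DESeq2 adjusted p = 0.00269 and 0.00094) and none of Fbp1, Fbp2 and G6pc. Among 16 regulators and hypoxia targets 5 were higher at an unadjusted p below 0.05 and 0 lower. These were Myc (log2 difference 0.42), Vegfa (0.18), P4ha1 (0.24), Ndrg1 (0.42) and Adm (0.44), while the transcription factors Hif1a, Epas1 and Arnt had -0.05, 0.06 and -0.03. Leaving out 1 library gave 2 to 7 genes of this list at an unadjusted p below 0.05, 7 without UIRI replicate 3. Of the 5, DESeq2 called only Ndrg1 (DESeq2 adjusted p = 0.00393).

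Which library was left out decided which members passed an unadjusted p of 0.05. With UIRI replicate 3 left out, Pfkp (log2 difference 0.21) and Pgk1 (0.34) were higher at an unadjusted p below 0.05, while 25.2% of all rows passed that threshold. The other log2 differences without that library were 0.11 (Hk1), -0.10 (Hk2), 0.01 (Pfkl), -0.03 (Aldoa), -0.004 (Gapdh), 0.04 (Eno1), -0.125 (Pkm) and 0.08 (Ldha). With UIRI replicate 2 left out, Hk2 and Pkm passed, both lower, while 1339 of 19176 rows passed. Under DESeq2 on all libraries Hk2 alone passed (DESeq2 unadjusted p = 0.0484, adjusted p = 0.504), against 7.88% of all rows. No member was called in the same direction in more than 1 of the settings that left out a library.

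**Figure D4:**
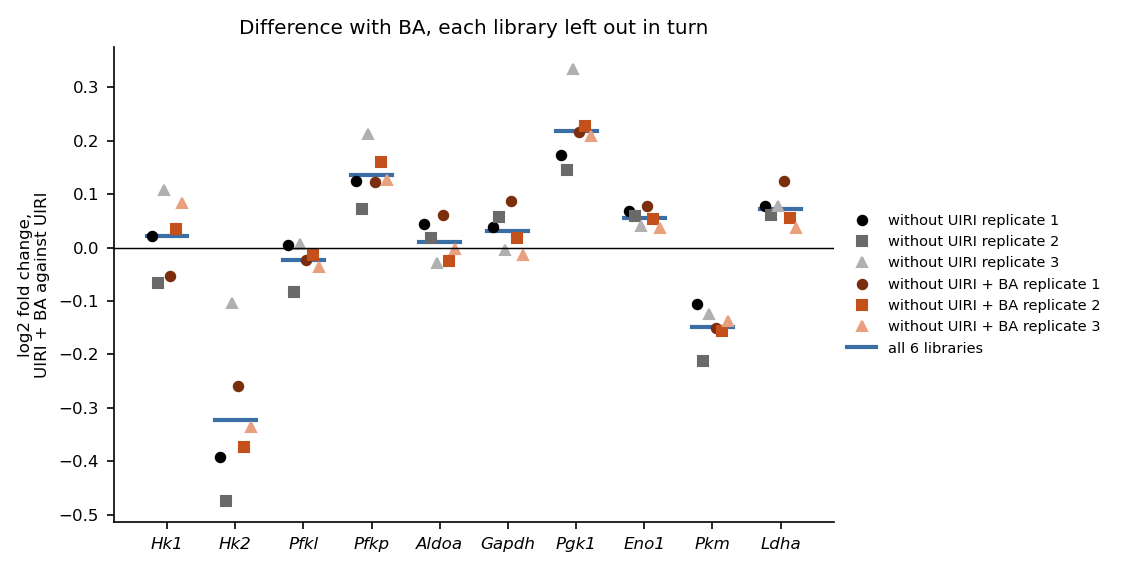
Log2 difference (UIRI + BA minus UIRI) of each glycolysis enzyme with all 6 libraries and with each library left out in turn. Without UIRI replicate 3 the value of Hk2 moves to -0.10 and that of Pgk1 to 0.34, while Eno1 stays between 0.04 and 0.08 in all 6 settings.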

How the data were processed

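RNA sequencing of renal cortex was taken from 6 libraries, 3 per group, grouped by their labels. In their methods the authors describe filtering with in-house scripts, alignment with HISAT2 v2.0.5, counting with FeatureCounts and testing with DESeq2 v1.20.0. The genome build and annotation are not given in the sources used here. The labels and the methods name different RNA extraction kits. The authors deposited 1 table whose signal is a read count divided by a size factor of the library, although the methods name FPKM. All values were whole multiples of 1 read (tolerance 0.05), which gave back the reads and the depth. The same table holds the authors' log2 fold changes, p-values and adjusted p-values, and other deposited tables hold Gene Ontology and KEGG enrichment; none of these was used. The number of unused columns of values per library was 0.

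The main test was limma 3.58.1 (R 4.3.3) with a mean-variance trend on all 19176 rows, after adding a pseudocount of 1 and taking log2, and Benjamini-Hochberg adjustment. Log2 differences are on that scale. DESeq2 1.42.0 and edgeR 4.0.16 on the recovered reads, other scalings, a filter, another pseudocount, a replicate block and leaving out each library were alternatives. Scripts were tested on simulated data. Exact permutation tests used scipy 1.17.1 (Python 3.11.15). Positions and mRNA lengths (longest principal transcript) came from GENCODE M21 (GRCm38), matched by symbol for all 10 members, and promoters from RefSeq (GRCm38.p6), also for all 10. Proteins were not analysed here, and some other enzymes of the pathway are not reported here.

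The members and lists were chosen with earlier results of these data known. Named were all members, the other glycolysis enzymes with a mean normalised count of at least 100, and in each further pathway list the genes with an unadjusted p below 0.05 and up to 3 more of the highest mean. The 5 genes most like the members by Pearson correlation were added.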

Additional observations from a re-analysis of the deposited data

How the results depend on the processing

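Each member rested on at least 425 reads in each library, and with 3 libraries a group the permutation p could not fall below 0.1. Of 139 values under alternatives 124 kept direction and side of the threshold, 0 lost a call, 1 gained one and 14 reversed. Genes at an adjusted p below 0.05 numbered 0 in the reported fit, 213 with DESeq2, 6 with the replicate block and 0 to 962 with 1 library left out (962 without UIRI replicate 3), and genes at an unadjusted p below 0.05 from 808 to 4838, the former without UIRI replicate 1 and the latter without UIRI replicate 3. Members at an unadjusted p below 0.05 numbered 1 with DESeq2 and 0 to 2 with 1 library left out. Pgk1 gained a call without UIRI replicate 3 (log2 difference 0.34). The log2 differences that reversed were for Hk1 -0.002 with quantile normalization, -0.001 with upper quartile scaling, -0.009 with Gapdh scaling, and -0.066 and -0.054 without UIRI replicate 2 and UIRI + BA replicate 1. For Pfkl they were 0.004 and 0.007 without UIRI replicates 1 and 3. For Aldoa they were -0.011 with upper quartile scaling, -0.020 with Gapdh scaling, and -0.028, -0.026 and -0.002 without UIRI replicate 3 and UIRI + BA replicates 2 and 3. For Gapdh they were -0.004 and -0.014 without UIRI replicate 3 and UIRI + BA replicate 3. With 1 library left out, Hk1 ran from -0.066 to 0.108, Pfkl from -0.084 to 0.007, Aldoa from -0.028 to 0.061 and Gapdh from -0.014 to 0.088. The median of the members was 0.03, and it was -0.01 under Gapdh scaling and 0.02 to 0.07 with 1 library left out. Genes higher and lower at an unadjusted p below 0.05 numbered 1087 and 884, against 925 and 1065 with upper quartile scaling and 587 and 1097 with Gapdh scaling. The cause of these shifts was not tested. Libraries with the same replicate number deviated from their group means with correlations of -0.41, 0.51 and 0.15, and only replicate 2 correlated best with its own number, so the replicate block treats a shared number as a pair; it left the members at 0 calls. The counts per list with 1 library left out were chosen after seeing the data.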

Other observations

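The genes whose pattern over the 6 libraries was most like the mean of the members' centred log2 values were Glrx3 (Pearson r = 0.992), Wars2 (0.985), Abhd17b (0.982), Dynlt3 (0.982) and Gar1 (0.98), out of 12638 genes with a mean normalised count of at least 100. The mean they were compared with was -0.002, -0.097 and 0.092 under UIRI and -0.028, 0.017 and 0.019 under UIRI + BA, in replicate order, so that the lowest and the highest library were both in the UIRI group. The normalised read counts of Glrx3, a cytosolic glutaredoxin, were 2531, 2333 and 2671 under UIRI and 2480.4, 2547 and 2553 under UIRI + BA, with the same lowest and highest library. The 5 genes were picked for this likeness among many, and the correlations are a description.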
